A study of Mus musculus with 16 samples.

Results

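Lumbar spinal cords of mice that carried both the Atg7 conditional knockout and the SOD1G93A transgene were compared with cords of mice that carried neither. The double mutant group (cKO_SOD1) is the 4 libraries titled Atg7 cKO with SOD1, and the unaffected control group (cWT) is the 4 libraries titled Atg7 cWT without SOD1, so 8 of the 16 libraries of the study were compared. SOD1G93A is a transgene of mutant human SOD1 that causes motor neuron disease in mice. The other groups are cKO (Atg7 deletion alone) and cWT_SOD1 (the transgene with Atg7 intact), with 4 libraries each, and their levels are given beside the comparison. Every animal was 150 days old, and the design text gives the 4 of a group as biological replicates. Sex was read from the counts of Xist and Y-linked genes, by which each group held 2 males and 2 females. The series title places the autophagy inhibition in motor neurons. The labels do not name the Cre driver. RNA came from the whole lumbar cord and was enriched for poly-A RNA, so a transcript level sums over motor neurons, interneurons, glia and vessels. In such bulk tissue, fewer cells of a type and less RNA per cell cannot be told apart.

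Atg7 is the E1-like enzyme that activates the ubiquitin-like proteins Atg12 and LC3, a step that autophagosome formation needs. Motor neurons are large cholinergic cells that depend on autophagy to clear protein and organelles along long axons. In SOD1G93A mice the fast-fatiguing motor neurons are lost early, and microglia and astrocytes in the ventral horn take on reactive states as disease advances.

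The 8 libraries held 16956436 to 20892530 counted reads each. Levels below are CPM (read counts scaled to a common library size) after TMM scaling, and a difference is the double mutant minus cWT on the log2 scale, tested by edgeR's quasi-likelihood F-test. A gene is called where its Benjamini-Hochberg adjusted p over all genes tested is under 0.05. On the first principal component of all 16 libraries, which held 71.4% of the variance, the double mutant libraries sat at −2.04 ± 1.71 (SD, n = 4). The cWT libraries sat at −37.6 ± 2.37, the cKO libraries at −32.8 ± 5.12 and the cWT_SOD1 libraries at 72.4 ± 15.8 (SD, n = 4 each). Atg7 (chr6:114593119-114810632, mm9) was at 35.1, 29.7, 29.9 and 31.0 CPM in cWT and at 29.4, 20.4, 29.3 and 29.6 CPM in the double mutant. The Atg7 groups did not overlap, as in 22.0% of genes tested, but 29.7 CPM in cWT nearly met 29.6 CPM in the double mutant. The difference was −0.21 (SE 0.12) and did not pass (adjusted p = 0.269). A whole-cord count does not check a deletion in one cell type. Mouse Sod1 was at 121 ± 8.32 and 107 ± 5.54 CPM (SD, n = 4 each), a difference of −0.18 that did not pass (adjusted p = 0.0593). It passed without cWT replicate 1 (adjusted p = 0.0247) and with only the 8 libraries (adjusted p = 0.0367). On all 16 libraries it also passed with DESeq2 (adjusted p = 0.0376) and with voom (adjusted p = 0.0307). The human transgene transcript was not analysed here.

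Of 15426 genes tested, 1808 (11.7%) were called between the double mutant and cWT. Of these, 1035 were higher in the double mutant (6.71% of genes tested) and 773 were lower (5.01%). The larger changes were mostly increases: 323 called genes were more than 2-fold higher (2.09%) and 48 were more than 2-fold lower (0.311%). The median called increase was 1.59-fold and the median called decrease 1.23-fold, while the median difference of all genes was 0.0046. The 4 double mutant libraries did not overlap the 4 cWT libraries for 3390 genes (22.0%), 1700 of which were called. The number of decreases differed between fits. Without double mutant replicate 3, 421 genes were called lower, without double mutant replicate 1, 480, and without cWT replicate 4, 515, while 810, 882 and 837 were called higher. With only the 8 libraries, 1349 were called higher and 1284 lower, and with voom 1333 and 1320. On deposited FPKM values, limma called 1127 genes higher and 426 lower, so 72.6% of its calls were increases against 57.2% with counts.

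**Figure D1:**
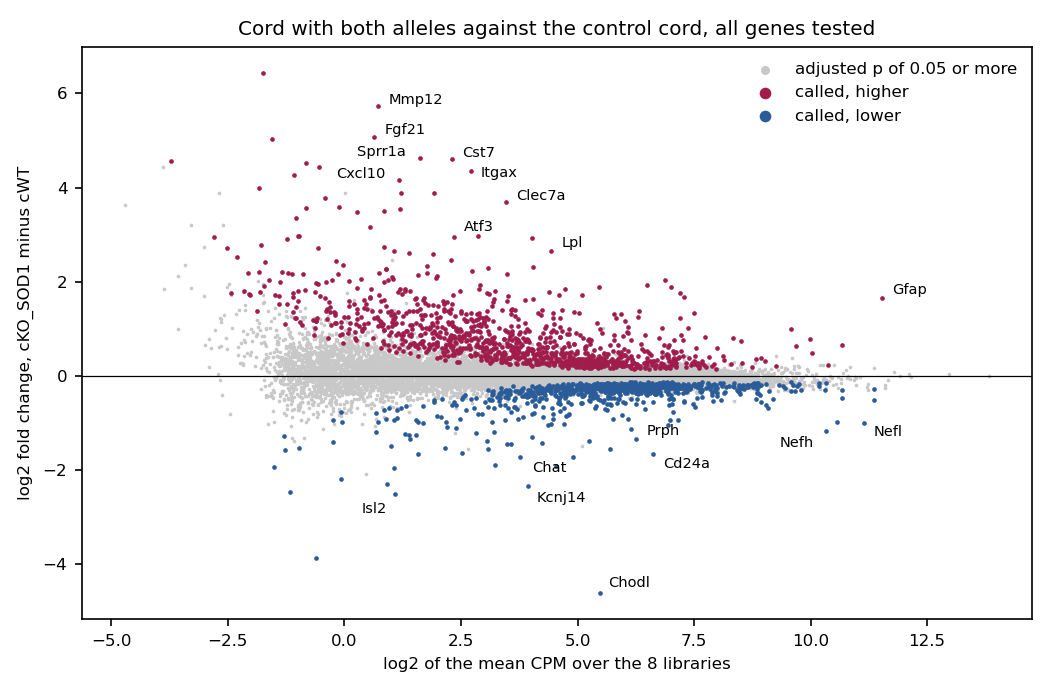
Each point is 1 of the 15426 genes tested, with its mean level in log2 CPM on the x axis and the log2 difference (cKO_SOD1 minus cWT) on the y axis; coloured points are the called genes and the named ones are labelled. Large increases such as Mmp12 (5.72) lie at low mean levels, and Chodl (−4.62) stands below every other called gene.

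The largest increases were taken among called genes whose groups did not overlap and whose mean over the 8 libraries was at least 1 CPM. The 12 largest were Mmp12, Fgf21, Sprr1a, Cst7, Itgax, Cxcl10, Lilrb4, Timp1, Clec7a, Ccl3, Tgm1 and Ccl4. Mmp12, the macrophage elastase, had 4 counts over the cWT libraries and 252 over the double mutant libraries, a ratio of 59.2 (95% interval 22.8 to 219, counting error only). Its fitted difference was 5.72 (SE 0.98, adjusted p = 0.000845), and it was 7.04 without cWT replicate 2, which held most of the control counts. Fgf21, a stress-induced hormone, was at 0.102, 0.0571, 0.111 and 0.0554 CPM in cWT and 3.28, 2.67, 2.61 and 3.48 CPM in the double mutant. Its 4 double mutant libraries were all far above the control ones (difference 5.08, SE 0.34, adjusted p = 5.29e-08), with 6 counts against 233, a ratio of 36.5 (16.5 to 101). Fgf21 was the exception among these 12 genes in its other groups: its mean was 4.97 CPM in cKO and 0.501 CPM in cWT_SOD1. It was higher in the double mutant than in cWT_SOD1 (difference 2.59, adjusted p = 2.34e-07) and lower than in cKO (−0.73, adjusted p = 0.0192). The other 11 had mean levels from 6.4 CPM (Ccl4) to 159 CPM (Clec7a) in cWT_SOD1, and each was lower in the double mutant than there.

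Sprr1a, an epithelial envelope protein made by regenerating neurons, was at 0.154, 0.171, 0.444 and 0.166 CPM in cWT and 5.85, 6.49, 5.26 and 5.97 CPM in the double mutant (difference 4.62, SE 0.38, adjusted p = 4.31e-07). Cst7, the lysosomal protease inhibitor cystatin F of microglia, was at 0.256, 0.4, 0.389 and 0.498 CPM against 11.8, 9.64, 9.69 and 6.76 CPM (difference 4.6, SE 0.41, adjusted p = 1.31e-06). In both genes the lowest double mutant library exceeded the highest control library more than 10-fold. Itgax, the integrin chain CD11c, rose by 4.35 from 0.605 to 12.5 CPM, and Clec7a, the beta-glucan receptor Dectin-1, by 3.69 from 1.57 to 20.4 CPM. Cxcl10, an interferon-induced chemokine gene that lies within Art3, rose by 4.16 from 0.23 to 4.27 CPM. Lilrb4, an inhibitory myeloid receptor, rose by 3.88, a value that is uncertain because a near-identical copy can share its reads. Timp1, an inhibitor of matrix proteases whose gene lies within Syn1, rose by 3.87, and Tgm1, a transglutaminase, by 3.51. The chemokines Ccl3 and Ccl4 rose by 3.55 and 3.48, and by 4.36 and 4.26 without cWT replicate 4, the control library with the highest level of both.

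By the same rule, the 12 largest decreases were mostly motor neuron genes. Chodl (chr16:78931193-78951973, mm9), a membrane lectin of fast motor neurons, was at 75.5, 96.9, 88.4 and 83.0 CPM in cWT and 4.04, 3.82, 2.52 and 3.68 CPM in the double mutant. Every double mutant library was below every control library, as the rule required, and the fitted level was 24.6-fold lower (difference −4.62, SE 0.14, adjusted p = 1.78e-12). Chodl was lower than in cWT_SOD1 as well, where its mean was 5.63 CPM (−0.68, adjusted p = 0.00302), and its mean in cKO was 51.1 CPM. Mmp9, a gelatinase made by fast motor neurons, was at 21.2, 20.8, 20.4 and 21.7 CPM in cWT and 6.91, 5.87, 5.54 and 6.91 CPM in the double mutant (difference −1.74, SE 0.09, adjusted p = 2.93e-09). Mmp9 differed from Chodl against the transgene alone, being higher in the double mutant than in cWT_SOD1 (0.61, adjusted p = 6.3e-05), where its mean was 4.14 CPM.

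Transcription factors of motor neuron identity fell with them. Isl2, a LIM homeobox factor, went from 3.59 ± 0.721 to 0.622 ± 0.288 CPM (SD, n = 4 each; difference −2.52, adjusted p = 5.46e-06). Mnx1, the homeobox factor that specifies motor neurons, went from 3.31 to 0.852 CPM (difference −1.95, adjusted p = 6.54e-06). The LIM factor Isl1 fell by 0.95 on the log2 scale (adjusted p = 0.00574). Chat, the enzyme that makes acetylcholine, was at 31.3, 57.2, 47.5 and 48.7 CPM in cWT and 15.1, 12.8, 12.2 and 15.7 CPM in the double mutant. Its groups did not overlap, which the rule for the largest decreases required, and the difference was −1.73 (SE 0.16, adjusted p = 1.42e-06). Slc18a3, the vesicular acetylcholine transporter, lies inside Chat, so both can share reads, and it fell by 1.56 from 77.7 to 26.3 CPM. Slc5a7, the choline uptake carrier at another locus, fell by 0.95 from 189 to 97.8 CPM (adjusted p = 0.000117). Of the other largest decreases, Kcnj14, an inward rectifier potassium channel, fell by 2.34, Slc10a4, a vesicle carrier of cholinergic neurons, by 1.92 and Rspo2, a Wnt signalling enhancer, by 1.9. Pde6b, a phosphodiesterase subunit, fell by 2.31 and Vipr2, a receptor for vasoactive intestinal peptide, by 1.64.

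**Figure D2:**
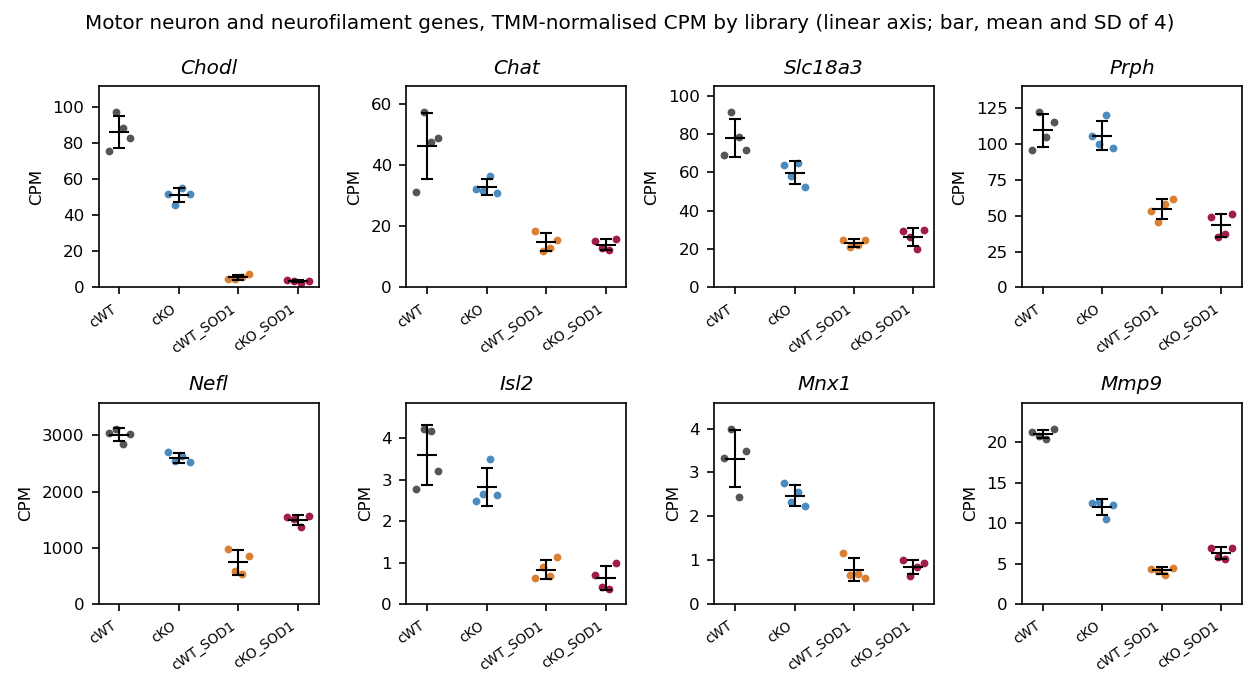
Each panel plots the level of 1 gene in CPM on a linear axis in the 4 libraries of every group, with points for libraries and bars for the mean and SD. In every panel the double mutant lies below cWT, with Chodl at 3.51 and 86.0 CPM, and Nefl lies at 1490 CPM in the double mutant and 741 CPM in cWT_SOD1.

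Of 20 motor neuron genes tested, 15 were lower and 0 higher, with a median difference of −1.48. Their summed level ran from 1000 to 1190 CPM in the cWT libraries and from 561 to 664 CPM in the double mutant ones, without overlap. Calca, the calcitonin gene-related peptide precursor, was at 23.8, 37.5, 24.9 and 23.1 CPM against 12.8, 10.4, 8.43 and 9.05 CPM, and fell by 1.43 (adjusted p = 8.54e-05). The 5 genes that did not pass were Esrrb, Esrrg, Gfra1, Ret and Bcl6. Esrrb and Esrrg, orphan nuclear receptors of which Esrrg is known from slow and gamma motor neurons, were at 13.6 and 113 CPM in cWT and at 11.6 and 102 CPM in the double mutant. The Esrrg difference was −0.14 (adjusted p = 0.637), beside a mean of 44.9 CPM in cWT_SOD1, from which the double mutant differed by 1.19 (adjusted p = 1.19e-05). Against cKO the same 20 genes gave 15 lower and 0 higher (all genes: 7.28% called, 4.8% higher and 2.48% lower), and against cWT_SOD1 5 lower and 7 higher with a median of 0.03 (all genes: 58.2% called). These comparisons share the double mutant libraries.

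Neurofilament subunits, which fill large myelinated axons, lay between the control and transgene levels. Nefl, the light subunit, was at 3040, 3120, 2850 and 3030 CPM in cWT and 1540, 1510, 1370 and 1570 CPM in the double mutant (difference −1.01, SE 0.14, adjusted p = 9.46e-05). The groups lay far apart, and the double mutant mean of 1490 CPM was above the 741 CPM of cWT_SOD1 (1.01, adjusted p = 7.22e-06). Nefm and Nefh, the medium and heavy subunits, fell by 0.98 and 1.17 and were likewise higher than in cWT_SOD1. Per transcript length, Nefl was the highest of the 3 subunits in both groups, at 1570 FPKM in cWT and 801 FPKM in the double mutant, beside 497 and 227 FPKM for Nefh. Prph (peripherin), a filament of neurons with peripheral axons, was at 95.4, 122, 105 and 115 CPM against 48.9, 35, 37.5 and 51.4 CPM (difference −1.34, adjusted p = 1.35e-06). Prph did not follow the neurofilaments against the transgene alone, being lower in the double mutant than in cWT_SOD1 (−0.34, adjusted p = 0.0259). Of 14 neurofilament and axonal cytoskeleton genes, 7 were lower and 0 higher (median −0.21), the others being Tubb2a, Tuba4a and Stmn3. Without double mutant replicate 3, 4 were lower, and Tuba4a had an adjusted p of 0.0524.

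General neuronal genes changed less. Of 24 pan-neuronal genes, 6 were lower and 0 higher, with a median of −0.18. Sv2b, a synaptic vesicle protein, fell by 0.66 and Stmn2, a tubulin regulator of axons, by 0.57, from 581 to 392 CPM. Tubb3, neuronal tubulin, Uchl1, a neuronal ubiquitin hydrolase, Dlg4, the synaptic scaffold PSD-95, and Rbfox3, the nuclear marker NeuN, made up the rest. Rbfox3 went from 163 to 139 CPM (−0.23, adjusted p = 0.011), and its adjusted p was 0.0563 without double mutant replicate 3, which had the lowest level. With only the 8 libraries in the fit, 16 of the 24 were called lower. Among 28 interneuron genes the 1 call was Chrm2, the muscarinic M2 receptor, which was at 44.7, 46.0, 45.3 and 45.4 CPM in cWT and 33.1, 31.8, 30.3 and 30.1 CPM in the double mutant (−0.53, adjusted p = 0.00364). Calb2 (calretinin) was at 227 and 185 CPM (−0.30, adjusted p = 0.0869), and its adjusted p was 0.0367 without cWT replicate 2 and 0.0257 with a replicate block. Of 16 glycine and GABA transmission genes, 0 were called (median −0.10, with 4 lower in the fit of 8 libraries). Glra1, the adult glycine receptor subunit, was at 172 CPM in cWT, 141 CPM in the double mutant (−0.29, adjusted p = 0.124) and 51.6 CPM in cWT_SOD1.

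**Figure D3:**
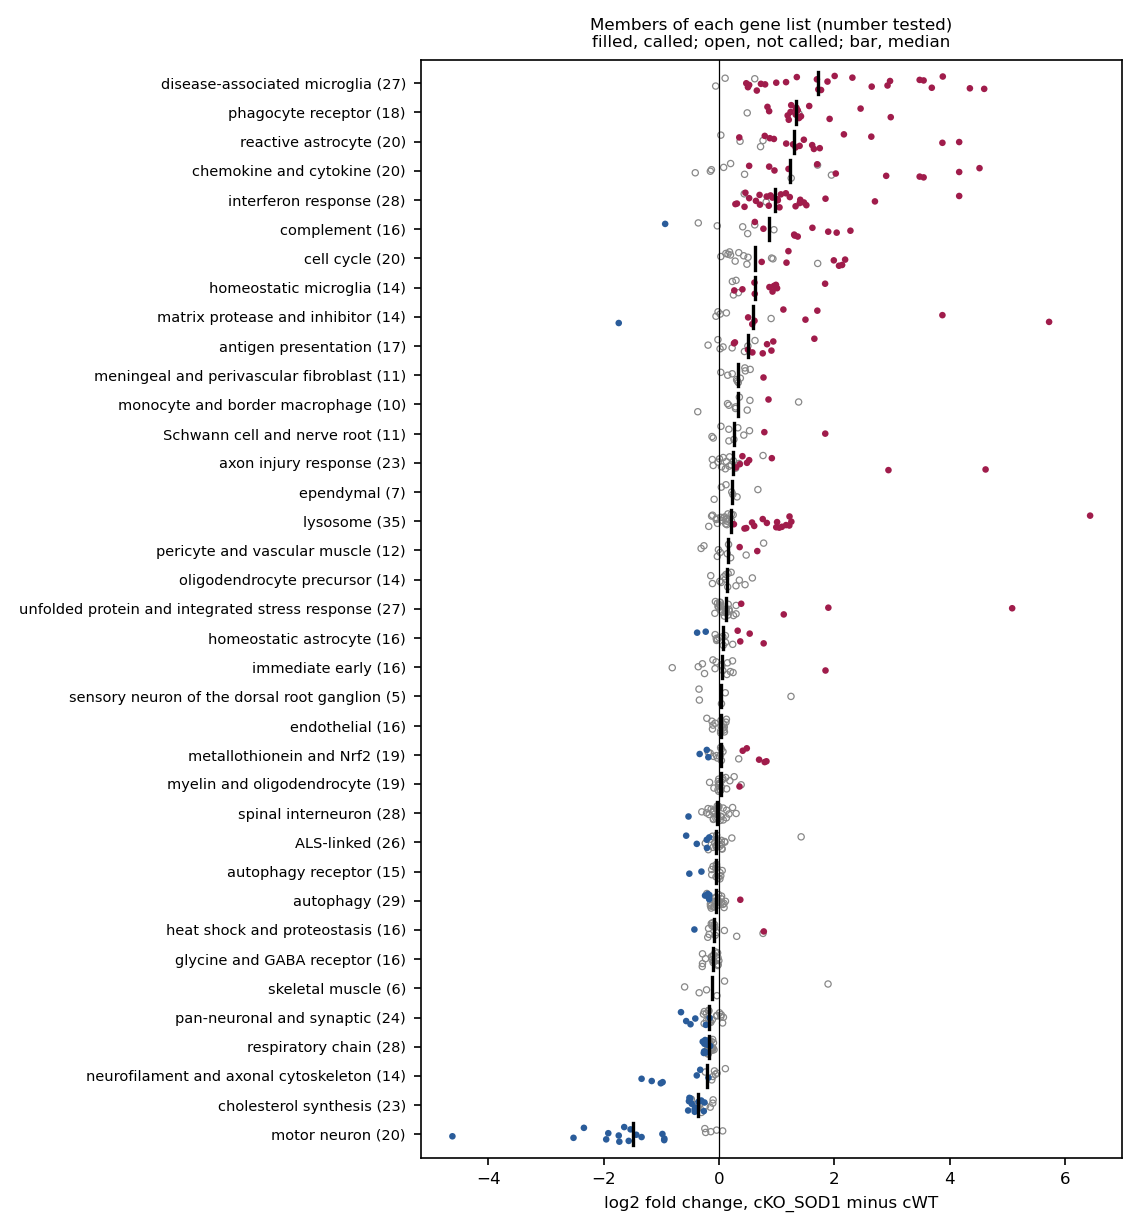
Rows are the gene lists with at least 5 tested members; dots are the log2 difference (cKO_SOD1 minus cWT) of each member and the bar is the list's median. The motor neuron median of −1.48 lies lowest and the disease-associated microglia median of 1.72 highest, while interneuron, myelin and endothelial members lie near 0.

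Microglial genes were higher in the double mutant than in cWT. Microglia are the resident macrophages of the cord, and in disease they turn on lipid-handling and phagocytic genes under the receptor Trem2. Of 27 genes of disease-associated microglia, 24 were higher and 0 lower, with a median of 1.72. Trem2 was at 8.76, 8.22, 9.44 and 11.8 CPM in cWT and 34.0, 31.0, 32.0 and 33.4 CPM in the double mutant, where all 4 libraries lay close together and above every control library (difference 1.77, SE 0.19, adjusted p = 6.84e-06). Lpl, a lipoprotein lipase, rose by 2.65 from 5.97 to 37.4 CPM, and Gpnmb, a lysosomal glycoprotein, by 2.92 from 3.8 to 28.7 CPM. Gpnmb was at 599 CPM in cWT_SOD1, and for all 27 genes the double mutant was lower than cWT_SOD1 (median −2.2). Apoe, the lipid carrier of astrocytes and microglia, was at 1270, 1270, 1210 and 1360 CPM against 1940, 2180, 1930 and 2000 CPM, and rose by 0.66 (adjusted p = 0.0198). Its adjusted p was 0.0548 without double mutant replicate 2 and 0.0567 without cWT replicate 3.

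The 3 members that did not pass were Spp1, Igf1 and Fabp5. Spp1 (osteopontin), which motor neurons express as well as activated microglia, was at 175, 166, 150 and 170 CPM in cWT and 161, 160, 155 and 159 CPM in the double mutant. Its groups overlapped (−0.06, adjusted p = 0.847), while the cWT_SOD1 mean was 967 CPM. Igf1, a growth factor, was at 9.83 and 15.1 CPM (0.62, adjusted p = 0.121). It passed with only the 8 libraries (adjusted p = 0.00157), while 18 of the 19 alternatives did not call it.

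Genes of resting microglia were higher as well. Of 14 such genes 10 were higher and 0 lower (median 0.62), and P2ry12, Tmem119, Slc2a5 and Mertk did not pass. Csf1r, the receptor that microglia need to survive, was at 102, 107, 106 and 105 CPM in cWT and 198, 184, 185 and 203 CPM in the double mutant, without overlap (difference 0.87, adjusted p = 2.09e-05). Cx3cr1, the fractalkine receptor, rose by 0.93 and the Fc receptor-like Fcrls by 1.84.

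Of 16 complement genes, 9 were higher and 1 was lower (median 0.86). C4b was at 57.0, 61.9, 46.4 and 52.5 CPM in cWT and 191, 214, 214 and 190 CPM in the double mutant, without overlap (difference 1.89, SE 0.14, adjusted p = 1.39e-07). It is uncertain how much of this belongs to C4b, because near-identical copies of the gene can share reads. C1qa, a chain of the recognition protein C1q, rose by 1.37, C3, the central component, by 2.04 from 45.9 to 189 CPM, and the receptor C3ar1 by 2.28. Cd55, which protects cells from complement by breaking up its convertases, was the member that fell, from 13.3, 14.8, 13.6 and 15.1 CPM to 7.38, 6.39, 6.29 and 9.7 CPM (−0.93, adjusted p = 0.000271). Its double mutant mean of 7.44 CPM lay beside 7.14 CPM in cWT_SOD1 and 13.2 CPM in cKO. Among 18 phagocyte receptor genes 16 were higher and 0 lower (median 1.34), with Itgb2 (the beta2 integrin) up by 1.62, Fcgr2b (an inhibitory Fc receptor) by 1.92, Fcer1g (the Fc receptor gamma chain) by 1.42 and Tlr2 by 1.24. Of 20 chemokine and cytokine genes tested out of 25 listed, 11 were higher and 0 lower (median 1.23). Csf1, the growth factor that injured neurons make for microglia, rose by 0.52 from 55.9 to 80.4 CPM (adjusted p = 6.29e-05).

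Interferon-stimulated genes were higher almost throughout the list. Of 28, 26 were higher and 0 lower (median 0.97), Oas2 and Xaf1 being those that did not pass. The promoters of 4 stress and interferon genes are shown with the motifs found in them, for 250 bases before the transcription start in RefSeq's GRCm38.p6, a build other than that of the files. Capitals mark GAAA, any 2 bases and GAAA again, the core of the interferon-stimulated response element, in Cxcl10, Isg15 and Ifit3, and TGATGNAA, the core that ATF4 with a C/EBP partner binds, in Fgf21, read on either strand.
Cxcl10, chr5:92348890-92349139, minus strand: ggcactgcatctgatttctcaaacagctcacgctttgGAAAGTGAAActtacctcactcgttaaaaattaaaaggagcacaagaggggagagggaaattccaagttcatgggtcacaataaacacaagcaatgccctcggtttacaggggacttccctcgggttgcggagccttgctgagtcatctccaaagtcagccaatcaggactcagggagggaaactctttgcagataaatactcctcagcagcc
Isg15, chr4:156200819-156201068, minus strand: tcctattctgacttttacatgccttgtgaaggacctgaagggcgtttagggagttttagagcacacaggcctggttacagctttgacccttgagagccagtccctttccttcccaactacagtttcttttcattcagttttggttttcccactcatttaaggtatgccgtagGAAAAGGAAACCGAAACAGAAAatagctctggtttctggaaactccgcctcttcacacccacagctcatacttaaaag
Ifit3, chr19:34583279-34583528, plus strand: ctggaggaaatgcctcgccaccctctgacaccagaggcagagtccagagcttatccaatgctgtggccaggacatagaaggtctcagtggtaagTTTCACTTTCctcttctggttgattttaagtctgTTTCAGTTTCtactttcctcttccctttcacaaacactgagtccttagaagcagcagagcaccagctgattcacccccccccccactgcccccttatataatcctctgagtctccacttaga
Fgf21, chr7:45615491-45615740, minus strand: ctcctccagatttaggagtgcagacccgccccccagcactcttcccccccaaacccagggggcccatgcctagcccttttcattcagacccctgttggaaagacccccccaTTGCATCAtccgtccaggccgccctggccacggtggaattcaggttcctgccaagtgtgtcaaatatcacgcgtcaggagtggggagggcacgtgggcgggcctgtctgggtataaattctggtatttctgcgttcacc
The match begins 213 bases before the start in Cxcl10 and 139 in Fgf21. Isg15 holds 3 overlapping matches and Ifit3 holds 2. The interferon element was in 12 of the 21 interferon genes matched to a promoter (57.1%) and in 3.46% of 27025 genes, and TGATGNAA in 5 of 26 matched stress-response genes (19.2%) and in 3.91% of all. Among the stress-response genes with a match, Fgf21 was called, while Chac1, Asns, Slc7a11 and Herpud1 were not. The called genes Trib3, Gdf15 and Edem1 held no match. Irf7, Oasl2 and Ifi44 were called without the interferon element. A match describes letters and not a bound site.

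The interferon genes differed in size of change and leaned on 1 library. Ifit3, an antiviral RNA-binding protein, was at 9.37, 6.68, 12.2 and 12.4 CPM in cWT and 20.8, 22.0, 38 and 21 CPM in the double mutant, with replicate 3 above the other three (difference 1.33, SE 0.27, adjusted p = 0.00315). Isg15, a ubiquitin-like modifier, was at 1.64, 1.77, 2.11 and 1.94 CPM against 2.69, 3.04, 5.26 and 2.49 CPM, again highest in replicate 3 (0.86, adjusted p = 0.0361). Without that library the Isg15 difference was 0.56 (adjusted p = 0.162), and 20 of the 28 genes were called. Isg15 also missed the threshold without double mutant replicate 2 and without any 1 of the 4 cWT libraries. Irf9, part of the factor that binds interferon-responsive promoters, rose by 0.71 from 11.8 to 19.3 CPM, Parp14, a mono-ADP-ribosyltransferase, by 1.16 and Ddx58, the viral RNA sensor RIG-I, by 0.89. Averaged over the list, the 4 double mutant libraries lay 0.802, 0.768, 1.3 and 0.701 above the mean cWT level on the log2 scale. Of 17 antigen presentation genes, 9 were higher and 0 lower (median 0.50), all outside class II, and 6 were higher without double mutant replicate 3. B2m, the light chain of MHC class I, rose by 0.76 from 114 to 193 CPM, the immunoproteasome subunit Psmb8 by 0.94, the peptide transporter Tap1 by 0.83 and the class I transactivator Nlrc5 by 1.65.

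Reactive astrocyte genes were higher by a like amount in every double mutant library. Of 20, 16 were higher and 0 lower (median 1.31), and Lcn2, Cp, Hspb1 and S100a10 did not pass. Gfap, the intermediate filament of astrocytes, was at 1390, 1340, 1370 and 1620 CPM in cWT and 4140, 4400, 4700 and 4650 CPM in the double mutant. All 4 double mutant libraries lay well clear of the control libraries (difference 1.65, SE 0.10, adjusted p = 8.47e-09), and the cWT_SOD1 mean was 12800 CPM. Vim (vimentin) rose by 1.75 from 67.0 to 225 CPM, Osmr, the oncostatin M receptor, by 1.62, Cd44, a hyaluronan receptor, by 1.4 and Nes (nestin) by 0.88. Of 16 homeostatic astrocyte genes, 4 were higher and 2 lower (median 0.07). Aqp4, the water channel of astrocyte endfeet, rose by 0.78 from 754 to 1290 CPM, and Gja1, a gap junction protein, Sox9, a glial transcription factor, and Mlc1, an endfoot membrane protein, also rose. Slc7a10, an amino acid carrier that overlaps Lrp3, fell by 0.38 from 116 to 89.3 CPM, and Gpc5, a glypican, was the other decrease. The count of decreases was 1 without double mutant replicate 1, 2, 3 or 4 or cWT replicate 1 or 3.

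**Figure D4:**
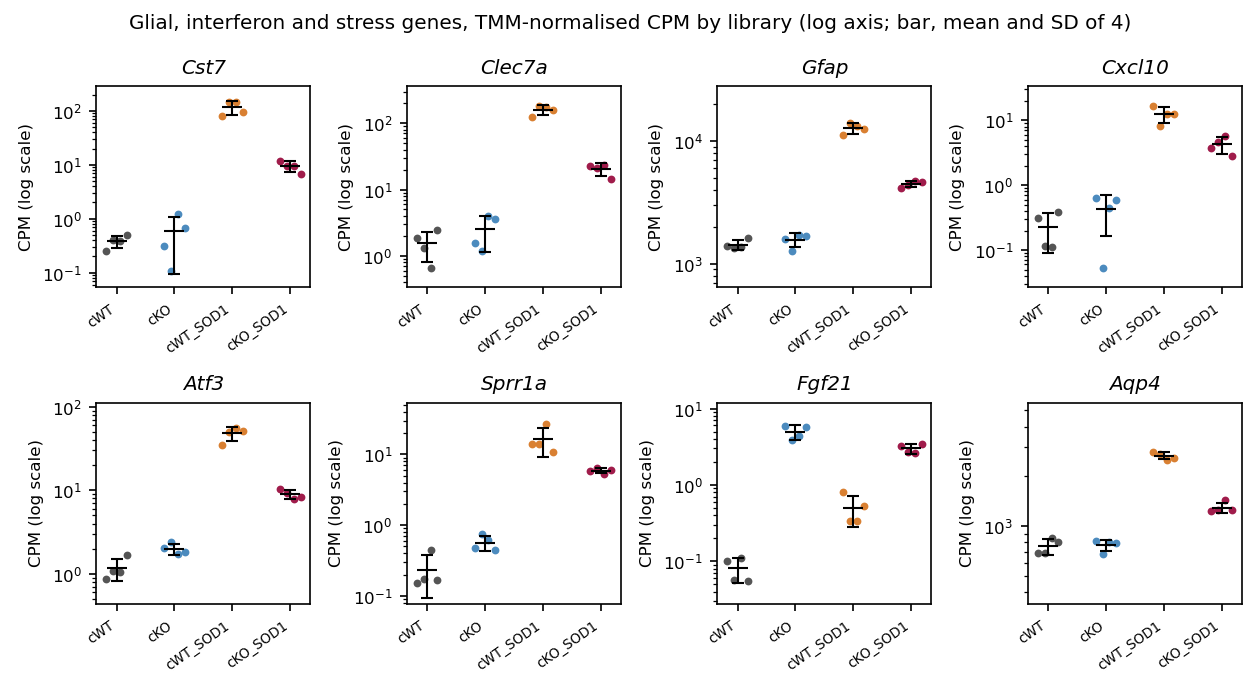
Each panel plots 1 gene's level in CPM on a log axis in the 4 libraries of every group, with points for libraries and bars for the mean and SD. For Cst7, Clec7a, Gfap, Cxcl10, Atf3, Sprr1a and Aqp4 the double mutant lies between cWT and cWT_SOD1 (Gfap 1430, 4470 and 12800 CPM), whereas Fgf21 is high in both groups with the Atg7 deletion.

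Lysosomal genes rose in part and core autophagy genes barely moved. Of 35 lysosome genes, 16 were higher and 0 lower (median 0.22). Ctss, a cathepsin of microglia, was at 80.8, 84.7, 81.8 and 105 CPM against 206, 191, 213 and 209 CPM, without overlap (1.22, adjusted p = 2.05e-05), Grn (progranulin) rose by 1.25 and Laptm5, a lysosomal membrane protein of blood-lineage cells, by 1.22. Of 29 core autophagy genes, 1 was higher and 5 lower (median −0.05). The decreases were small: Map1lc3a, an LC3 protein, fell by 0.24 from 149 to 126 CPM, Gabarapl1, a related protein, by 0.20, Atg12 by 0.18, Map1lc3b by 0.17 and the LC3 protease Atg4b by 0.17. The related protease Atg4a rose by 0.37 from 3.43 to 4.43 CPM (adjusted p = 0.0407). The count of decreases was 1 without double mutant replicate 1 or 3 or cWT replicate 4, and 3 without cWT replicate 1 or 2 or double mutant replicate 4. Of the 8 fits that leave out a library, the one without double mutant replicate 1 kept the Atg4a call. Bnip3, a mitophagy receptor, fell by 0.30 from 84.3 to 68.3 CPM, and Ncoa4, the ferritin autophagy receptor, by 0.51 from 14.7 to 10.3 CPM. They were the 2 of 15 receptor genes called, near the 11.7% called among all genes tested. On FPKM the Ncoa4 difference was −0.041 (adjusted p = 0.576).

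Genes of the unfolded protein and integrated stress responses, like most genes tested, were mostly not called. These pathways slow translation and raise chaperones when the endoplasmic reticulum is overloaded. Of 27 genes, 4 were higher and 0 lower (median 0.12), beside 11.7% called and 6.71% higher among all genes tested. Of the 27, 9 were higher without overlap of the groups, beside 10.4% of all genes tested. With only the 8 libraries 8 were called higher, in a fit that called 2633 of 15010 genes, 1349 of them higher. Edem1, which marks misfolded glycoproteins for degradation, rose by 0.39 from 38.2 to 49.9 CPM, and Trib3, a pseudokinase induced by ATF4, by 1.12 from 0.554 to 1.21 CPM. The Trib3 call (adjusted p = 0.0238) was lost without cWT replicate 1, 3 or 4 or double mutant replicate 1 or 2, with an adjusted p of 0.0575 to 0.0808. Gdf15, a stress hormone, had 9 counts over cWT and 37 over the double mutant, a ratio of 3.87 (1.83 to 9.11). It rose by 1.9 (adjusted p = 0.00768), and its mean was 4.19 CPM in cWT_SOD1. Ddit3, the stress factor CHOP, was at 18.5 and 22.0 CPM (0.25, adjusted p = 0.0804). The list member Pdia4 differed by 0.30 (adjusted p = 0.0529). Both passed with only the 8 libraries, with voom and on FPKM, and Pdia4 also with DESeq2. Of 16 heat shock genes 2 were called, near the 11.7% called among all genes tested. Hspb6, a small heat shock protein, rose by 0.78. Bag3, the co-chaperone of chaperone-assisted autophagy, fell by 0.43 from 51.9, 52.2, 46.9 and 44.3 CPM to 37.6, 34.2, 35.8 and 37.7 CPM (adjusted p = 0.0017). Of 19 metallothionein and Nrf2 genes, 5 were higher and 3 lower. Mt2, a metal-binding protein, rose by 0.82 from 153 to 271 CPM, Hmox1, heme oxygenase, by 0.70 and the factor Nfe2l2 (Nrf2) itself by 0.41. Gsta4, which clears lipid peroxidation products, fell by 0.34 from 63.2 to 50.1 CPM, with Gclm and Sod2 as the other decreases. The count of decreases was 1 without cWT replicate 1, 2 or 3 or double mutant replicate 1, 2 or 3.

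Some axon injury genes were higher. Of 23 tested out of 24, 8 were higher and 0 lower (median 0.25). Atf3, a transcription factor that injured neurons switch on, was at 0.87, 1.08, 1.06 and 1.66 CPM in cWT and 10.4, 9.32, 7.87 and 8.35 CPM in the double mutant. Its groups were far apart (difference 2.94, SE 0.20, adjusted p = 6.3e-08), with 1.98 CPM in cKO and 48.0 CPM in cWT_SOD1. Plat, tissue plasminogen activator, rose by 0.92, and Sox11, Gadd45a, Tnfrsf12a and Tubb6 rose with Sprr1a and Csf1. Of 20 cell cycle genes, 7 were higher and 0 lower (median 0.62). Top2a, a DNA topoisomerase, was at 0.819, 1.03, 1.72 and 0.886 CPM against 4.63, 4.35, 5.31 and 5.27 CPM (2.13, adjusted p = 5.73e-06), and Mki67, the proliferation antigen, rose by 2.08 from 1.49 to 6.32 CPM. Bub1b, a spindle checkpoint kinase, rose by 2.19 and by 1.58 without double mutant replicate 2, which was at 5.66 CPM. Of 14 matrix protease genes, 8 were higher and 1, Mmp9, was lower (median 0.60), and 5 were higher without cWT replicate 1, cWT replicate 2 or double mutant replicate 4. Plau, the urokinase, rose by 1.71 and Mmp19 by 1.5.

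Cholesterol synthesis genes were lower, with a dependence on single libraries. Of 23 tested out of 24, 13 were lower and 0 higher (median −0.37). Hmgcs1 was listed at 0 in all libraries. Acat2, an acetyl-CoA acetyltransferase, was at 50.1, 52.3, 54.8 and 60.4 CPM in cWT and 45.4, 41.7, 42.6 and 46.3 CPM in the double mutant (−0.31, SE 0.08, adjusted p = 0.0138). Its groups did not overlap, cWT_SOD1 was at 32.7 CPM, and its adjusted p was 0.0526 without cWT replicate 4. Mvk, mevalonate kinase, and Hsd17b7, a sterol reductase, fell by 0.42 and 0.47. Averaged over the list, the double mutant libraries lay at −0.457, −0.479, −0.403 and −0.101 relative to cWT. The count of decreases was 20 without double mutant replicate 4, 6 without cWT replicate 3, 2 without double mutant replicate 2 or 3, and 1 without double mutant replicate 1 or cWT replicate 4.

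Myelin genes, by contrast, stayed near the control level: of 19, 1 was higher and 0 lower (median 0.03), and 2 were higher without double mutant replicate 2. Cldn11, the tight junction protein of myelin, rose by 0.35 from 400 to 511 CPM (adjusted p = 0.0029), while Mag, an adhesion protein of myelin, was at 759 and 832 CPM (0.13, adjusted p = 0.314). Slc16a1, the lactate carrier MCT1, was at 93.9 and 113 CPM (0.26, adjusted p = 0.0776), and its adjusted p was 0.0396 without double mutant replicate 2 and 0.0462 with a replicate block. Of 14 oligodendrocyte precursor genes, 0 were called (median 0.14, with 4 higher in the fit of 8 libraries). Gpr17, a receptor of committed precursors, was at 46.8 and 64.1 CPM (0.45, adjusted p = 0.0685). It passed with only the 8 libraries, with DESeq2 and with voom, while 16 of the 19 alternatives did not call it. Of 28 respiratory chain genes, 8 were lower and 0 higher (median −0.18). Cox4i1, a cytochrome oxidase subunit, fell by 0.25 from 402 to 338 CPM (adjusted p = 0.00822), Cox7b by 0.28 and the ATP synthase subunit Atp5o by 0.24. The count was 2 without double mutant replicate 1 or 3 or cWT replicate 4, 4 without cWT replicate 3, and 5 without cWT replicate 1 or double mutant replicate 2. Of 26 genes linked to amyotrophic lateral sclerosis in people, 5 were lower and 0 higher, and 3 were lower without double mutant replicate 3. They were the mouse C9orf72 gene, listed as 3110043O21Rik, which fell by 0.21 from 57.7 to 49.9 CPM, Fig4, a lipid phosphatase, by 0.21, Tuba4a, Vapb and Stmn2.

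Markers of other cells that a cord sample can hold were compared in the same libraries. Of 16 endothelial, 7 ependymal, 5 sensory ganglion and 6 skeletal muscle genes tested, 0 were called. For T and natural killer cells, 3 of 15 markers were tested and 0 were called, with a summed level from 1.28 to 2.3 CPM in cWT and 1.35 to 2.52 CPM in the double mutant. For neutrophils, 4 of 10 were tested and 0 called, with sums from 0.722 to 8.14 CPM and 1.1 to 8.56 CPM. For B cells, 4 of 9 were tested and their sum was 2.0 to 4.26 CPM in cWT and 5.15 to 6.12 CPM in the double mutant. The call there was Cd22, a sialic acid receptor that microglia also express, which rose by 3.15 from 0.288 to 2.62 CPM (adjusted p = 0.000744), and by 4.1 without cWT replicate 4. Markers of monocytes and border macrophages summed to 111 to 129 CPM in cWT and 153 to 201 CPM in the double mutant. Of the 10 tested, 1 was called, Fn1 (fibronectin, 0.85, adjusted p = 0.00177), which was at 68.6, 74.5, 67.6 and 113 CPM in the double mutant, and the monocyte receptor Ccr2 was at 0.445 and 0.347 CPM. Their part in the microglial and interferon differences was not tested. Of 11 Schwann cell genes 2 were higher, Egr2 and Fgl2, of 12 pericyte genes 2, Tagln and Notch3, and of 11 fibroblast genes 1, Lum. Leaving out 1 library moved these small counts by 1: ganglion to 1 without cWT replicate 2 or double mutant replicate 3, muscle to 1 without cWT replicate 1 or double mutant replicate 4, macrophages to 2 without double mutant replicate 4, pericyte to 1 without any 1 library but double mutant replicate 4, and fibroblast to 0 without cWT replicate 1, 2 or 4. Egr2, a transcription factor of myelinating Schwann cells and of activity, was also the 1 call among 16 immediate early genes, and rose by 1.84 from 0.639 to 2.34 CPM (adjusted p = 0.00478).

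Finally, genes were sought at which the double mutant differed from each of the other 3 groups in 1 direction, taking the largest of the 3 p-values of a gene and adjusting over all genes. With edgeR, 0 genes were higher and 6 were lower (0.0389% of genes tested), against 19 higher (0.123%) and 68 lower (0.441%) at an unadjusted p under 0.05. The 3 comparisons share the double mutant libraries. The 6 are not every gene that lay below the other groups. Chodl, Prph and Vipr2 were also lower than each other group at an adjusted p under 0.05, but were not called over the 3 comparisons. Their largest adjusted p of a single comparison was 0.00302, 0.0259 and 0.0129. Cd24a (chr10:43298975-43304071, mm9), a glycosylated surface protein of immature neurons and ependyma, was at 142, 157, 144 and 155 CPM in cWT and 49.9, 48.7, 43.4 and 48.1 CPM in the double mutant (difference −1.66, SE 0.09, adjusted p = 2.93e-09). In cKO it was at 116, 119, 135 and 103 CPM and in cWT_SOD1 at 85.7, 91.4, 113 and 97.9 CPM, so the double mutant libraries lay below all 12 others (adjusted p over the 3 comparisons = 1.57e-05). Layn (chr9:50864885-50885199, mm9), the hyaluronan receptor layilin, was at 12.1, 14.8, 12.4 and 11 CPM in cWT and 4.27, 4.03, 4.33 and 4.53 CPM in the double mutant. Its cWT_SOD1 mean of 11 CPM lay near cWT and its cKO mean was 8.25 CPM, and the double mutant libraries were again the lowest 4 (adjusted p over the 3 comparisons = 0.00309).

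The other 4 were lower by less or with less margin. Serpinb6a, an intracellular protease inhibitor that overlaps Nqo2, was at 67.3, 69.7, 65.5 and 73.5 CPM in cWT and 50.5, 45.7, 46.2 and 52.7 CPM in the double mutant, beside means of 66.0 CPM in cKO and 82.4 CPM in cWT_SOD1. Gna14, a G protein alpha subunit, was at 12.8, 12.5, 12.8 and 13.2 CPM against 6.09, 4.77, 4.43 and 7.06 CPM, and its lowest library of the other groups was at 8.70 CPM. Their groups did not overlap, and the adjusted p over the 3 comparisons was 0.0284 for Serpinb6a and 0.0295 for Gna14. Plxdc1, a plexin domain membrane protein, was at 34.3, 35.3, 36.3 and 32.5 CPM against 18.9, 19.3, 18.3 and 19.8 CPM. Pdgfd, a platelet-derived growth factor that overlaps Ddi1, was at 35, 34.5, 33.0 and 36.8 CPM against 19.3, 15.4, 16.6 and 17.4 CPM, and both had an adjusted p of 0.0295. Cd24a and Layn kept the call in the 18 alternatives that give this value. With a replicate block those were the 2 genes left. The adjusted p with the block was 0.0676 for Serpinb6a and Gna14, 0.0962 for Plxdc1 and 0.133 for Pdgfd. Leaving out any 1 library of the 8 left 2 to 4 genes: Serpinb6a was lost without cWT replicate 1 or 2 or double mutant replicate 2 or 3. Among these 8 fits, Gna14 kept the call without double mutant replicate 4 alone, Pdgfd without double mutant replicate 1 alone and Plxdc1 without cWT replicate 4 alone.

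**Figure D5:**
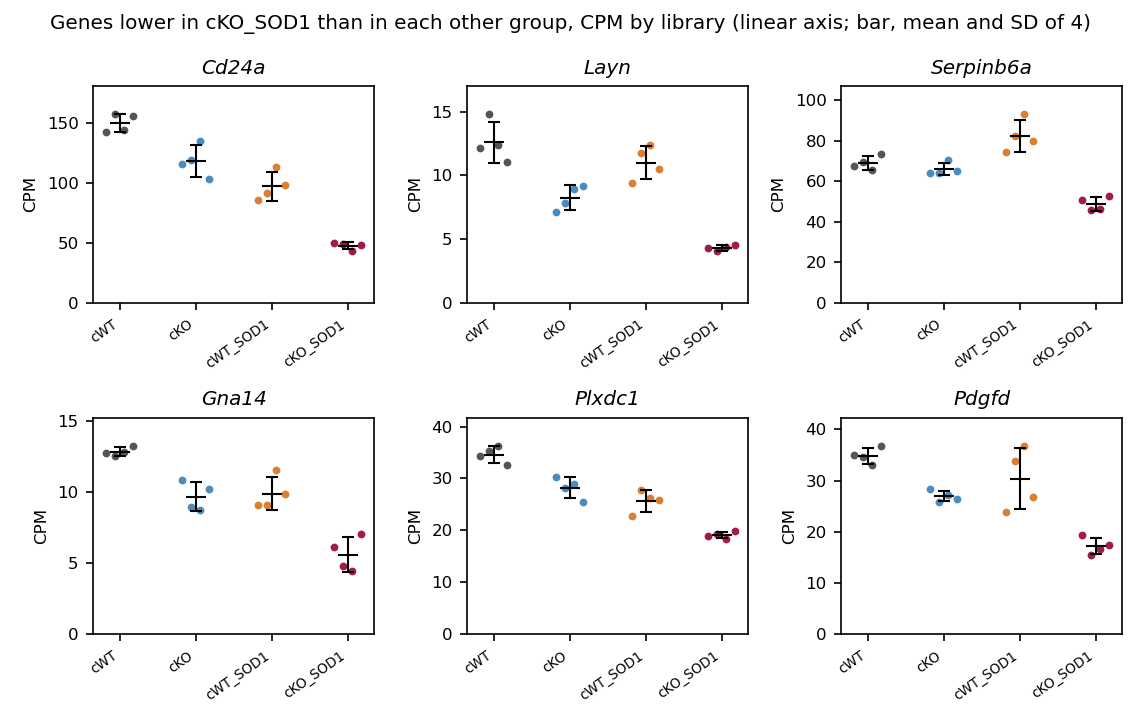
Each panel plots the level in CPM on a linear axis in the 4 libraries of every group. The 6 genes are those called lower in the double mutant by the adjusted p over the 3 comparisons. Points are libraries and bars are the mean and SD. In Cd24a the means step from 150 through 118 and 97.1 to 47.5 CPM, whereas Serpinb6a is highest in cWT_SOD1 at 82.4 CPM.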

How the data were processed

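Gene counts, not normalised, were deposited for 23284 symbols. FPKM values of 23699 entries were deposited in a joint table and, with the same values, in a Cufflinks-style table of each library, whose loci give the mm9 positions printed. The submitters' processing notes list Cufflinks 2.0.2, TopHat2 2.0.4, bcl2fastq 1.8.4 and the mm9 build. No source used here names the counting tool or its strand setting, so overlapping or near-identical genes can share reads. From the counts, edgeR 4.0.16 (R 4.3.3; TMM, filterByExpr, quasi-likelihood F-test) fitted all 16 libraries with 1 coefficient per group and no covariate, leaving 15426 genes. An SE is the difference divided by the square root of its F value. The alternatives were other scalings, no filter, a replicate block, sex as a covariate, the 8 libraries alone, and leaving out each of those 8. The cKO and cWT_SOD1 libraries were not left out. Further alternatives were DESeq2 1.42.0, limma 3.58.1 with voom, and limma on log2(FPKM + 1) or log2(FPKM + 0.1), which understates changes of low genes. Intervals of count ratios are 95% and cover counting error only.

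Deviations from group means were correlated between cWT and double mutant libraries. The correlation was 0.195 to 0.312 for the same replicate number, 0.155 to 0.234 for other numbers of the same sex, and −0.297 to −0.132 between sexes. The numbers come from the titles. In these groups, libraries of the same number were also of the same sex, and their range overlapped that of other same-sex libraries. The check therefore shows sex and cannot decide whether the numbers pair the samples. Outside these groups number and sex did not always go together: replicate 1 was male in cWT but female in cKO. The cKO and cWT_SOD1 libraries were not part of the check. The reported values come from the fit without the block, the design set for this comparison. The value with the block is given where it changes the call of a named gene.

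The members and lists were chosen with earlier results of these data known. Named were at most 12 genes higher and 12 lower with the largest change, a call, no overlap and a mean of at least 1 CPM over the 8 libraries. At most 8 apart from the other groups and at most 4 per list in 28 lists were also named. A further 21 genes were chosen after their values were seen, 4 are for orientation, and 13 lists are given by counts. The motifs and promoters shown were chosen likewise. The fit was tested on simulated data. Some results are not reported here.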

Additional observations from a re-analysis of the deposited data

Results flagged for a closer look

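Of 300 checks of a gene in a group of 4 libraries, 14 found 1 library far from the other three, and chance gives about 1 in 20. In the double mutant, replicate 2 had the lowest Atg7 level, 20.4 CPM beside a group median of 29.3. Replicate 3 was apart in 4 genes: Aqp4 at 1430 CPM (median 1240), Ifit3 at 38 CPM (21.5), Rspo2 at 4.38 CPM (3.81) and Rbfox3 at 132 CPM (141). Replicate 4 had the highest Fn1 level, 113 CPM (71.5).

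In cWT, replicate 2 was apart in 5 genes: Kcnj14 at 30.0 CPM (median 24.3), Slc5a7 at 220 CPM (180), Calca at 37.5 CPM (24.3), Trib3 at 0.971 CPM (0.444) and Egr2 at 0.285 CPM (0.746). The first 3 are genes that motor neurons express, and all 3 were highest there. Replicate 3 had the highest Sprr1a level, 0.444 CPM (0.169). Replicate 4 was apart in Ctss at 105 CPM (83.3) and Atg4a at 3.27 CPM (3.48).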

How the results depend on the processing

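Of 150 named genes, 123 were called, and 103 of these kept the call and direction in all 19 alternatives. Of the 27 not called, 18 passed in at least 1 alternative. Genes called lower over the 3 comparisons with the other groups numbered 6. They were 2 with a replicate block, 3 with sex as a covariate and 10 with DESeq2. When 1 of the 8 libraries was left out, they were 2 to 4. The fit of only the 8 libraries gives no such value. Genes called lower (773) numbered 1284 with only the 8 libraries, 1320 with voom, 421 to 657 when 1 library was left out, 426 on log2(FPKM + 1), 429 on log2(FPKM + 0.1) and 394 on log2(FPKM + 1) without the filter. Genes called and changed more than 2-fold in either direction numbered 126 on log2(FPKM + 1) and 124 without the filter. The share of calls that were increases (57.2%) was 72.6% to 74.9% on FPKM. The cause was not tested. The block called 1914 genes, added Calb2 and Slc16a1, and changed no other named call beside those lost among the 6. Low counts, as of Mmp12, Fgf21 and Gdf15, limit the precision of their folds.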
